A study of Mus musculus with 4 samples.

Results

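The genes described are 9 that encode subunits of NADPH oxidases of colon epithelium and phagocytes, and the inducible nitric oxide synthase. They were taken by name, and all 9 were found among the 22422 genes of the table. Duox2, Duoxa2, Nox1, Noxa1 and Noxo1 belong to the epithelial oxidases, Cybb, Cyba and Ncf1 to the phagocyte oxidase, and Nos2 is the synthase. RNA of the distal colon was sequenced from Elf4fl/fl-Villin-Cre mice (2 libraries) and wild-type mice (2 libraries). All mice were female, 6 weeks old and had received 2% dextran sulfate sodium (DSS), a polysaccharide that injures the colon lining, for 5 days. The villin promoter limits Cre to intestinal epithelium in Elf4fl/fl-Villin-Cre mice, where it removes the floxed part of Elf4, so other cells of the colon keep the gene. The series text gives C57BL/6 for all mice, while C57BL/8 stands as the strain of the Elf4fl/fl-Villin-Cre mice in their labels. The labels do not say which alleles the wild-type mice carried, whether the genotypes were littermates, or whether replicates were separate animals. All p-values thus rest on the spread between libraries, which may be technical. Colon without DSS was not analysed here.

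NADPH oxidases pass electrons from NADPH across a membrane to oxygen and so make superoxide or hydrogen peroxide. In colon epithelium, DUOX2 releases hydrogen peroxide at the luminal surface and needs the maturation factor DUOXA2 to leave the endoplasmic reticulum, while NOX1 works with the organizer NOXO1, the activator NOXA1 and the membrane partner CYBA. In neutrophils, macrophages and B cells the catalytic subunit CYBB pairs with CYBA, and the cytosolic organizer NCF1 helps to switch it on for the respiratory burst. NOS2 makes nitric oxide from arginine once cytokines or bacterial products induce its gene, in macrophages and in epithelium.

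The libraries held 16023926 and 16425954 whole reads in Elf4fl/fl-Villin-Cre colon and 16134509 and 15885028 in wild-type colon. Elf4 fell to 897 and 758 normalised reads in Elf4fl/fl-Villin-Cre colon, against 1588 and 1938 in wild-type colon (log2 fold change -1.09 ± 0.16 SE, limma adjusted p = 0.0139). The makeup of the tissue RNA differed between the genotypes too. Epithelial markers had a median log2 fold change of -1.39, a larger fall than that of Elf4. Their part in the fall of Elf4 was not tested. All 13 epithelial markers fell, and their summed level was 108839 and 137352 normalised reads in Elf4fl/fl-Villin-Cre colon against 325206 and 391954 in wild-type colon. Of 14 macrophage and monocyte markers, 10 rose and 0 fell, with sums of 20254 and 16442 against 10833 and 9473. Of 14 neutrophil markers, 10 rose and 0 fell. Ly6g, a surface marker of neutrophils, did not follow them, at 9105 and 10787 normalised reads in Elf4fl/fl-Villin-Cre colon and 12663 and 13520.2 in wild-type colon, and without it the neutrophil sum was 8390 and 8368 against 2155 and 959. Only 0.535% of tested genes had a higher mean than Ly6g, and which cells made its RNA was not measured. Ltf did not follow the risen neutrophil markers either. It stood at 711 and 339 normalised reads in Elf4fl/fl-Villin-Cre colon, against 835 and 210 in wild-type colon, and these overlapped. Camp and Ngp were at 0 in at least 1 library. Over all genes limma called 8.6% lower and 6.86% higher. With quantile scaling 8 epithelial markers fell and 6 macrophage and monocyte markers rose. Without the mean-variance trend of the limma fit 0 markers passed, as did 0 of all genes. With 1 library left out, the limma median log2 fold change ranged from -1.16 to -1.62 for epithelial markers. It ranged from 0.65 to 1.02 for macrophage and monocyte markers and from 2.48 to 2.92 for neutrophil markers. Of 6 B cell markers 0 passed limma or edgeR (2 had an unadjusted limma p under 0.05), with sums of 2705 and 1383 against 1435 and 661. Of 5 eosinophil markers 0 passed in either (2 had an unadjusted limma p under 0.05), with sums of 709 and 763 against 741 and 599.6. In whole tissue, fewer cells of a type and less RNA per cell cannot be told apart.

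The upstream sequences of 3 members are shown because the results turn on these genes. Duoxa2 stands for the Duox2 and Duoxa2 pair, Noxa1 is the only member past the test, and Cybb is the catalytic subunit of phagocytes. Each run is the 250 bases before the RefSeq transcript start (GRCm38.p6), written 5′ to 3′ on the strand of the gene. The Cybb run lies inside the annotated span given for the gene below (9435252 to 9487771, minus strand). RefSeq and the annotation of that span thus place the start of Cybb differently. Capitals mark GGAA or its complement TTCC, the core that factors of the ETS family, to which Elf4 belongs, can bind.
Duoxa2 (chr2:122298650-122298899, plus strand): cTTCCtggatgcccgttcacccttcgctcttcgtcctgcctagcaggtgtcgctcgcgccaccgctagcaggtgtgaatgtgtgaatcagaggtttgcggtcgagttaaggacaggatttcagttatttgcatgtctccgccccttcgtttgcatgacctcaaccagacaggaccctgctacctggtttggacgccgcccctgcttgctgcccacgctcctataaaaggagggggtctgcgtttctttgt
Noxa1 (chr2:25095206-25095455, minus strand): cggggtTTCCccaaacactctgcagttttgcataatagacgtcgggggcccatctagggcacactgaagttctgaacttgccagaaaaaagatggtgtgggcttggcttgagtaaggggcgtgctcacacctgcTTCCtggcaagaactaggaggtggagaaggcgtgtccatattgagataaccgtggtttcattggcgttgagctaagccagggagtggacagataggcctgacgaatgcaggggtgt
Cybb (chrX:9469325-9469574, minus strand): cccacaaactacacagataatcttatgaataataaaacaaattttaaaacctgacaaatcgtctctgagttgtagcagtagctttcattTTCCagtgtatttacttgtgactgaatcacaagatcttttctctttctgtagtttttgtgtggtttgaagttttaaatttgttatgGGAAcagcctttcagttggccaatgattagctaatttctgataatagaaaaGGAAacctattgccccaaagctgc

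The RefSeq table matched 8 of the 9 members, and Nos2 was the other. On either strand, GGAA was present in all 8 windows and in 93.5% of the 32851 windows of this length, so it does not set the members apart. The core of the interferon-stimulated response element, 2 runs of GAAA with 2 other bases between them, was found in Cybb (3 matches) and Ncf1 (1 match), against 2.98% of all windows. The interferon-gamma activation site TTCNNNGAA was found in Ncf1 alone (1 match), against 7.02% of all windows. The kappa-B motif of NF-kappa-B was found in Noxa1, where the same bases match on each strand, and in Nox1 (1 match), against 7.25% of all windows. Matches of different motifs can share bases, as the kappa-B match of Noxa1 does with a TTCC. A match is a run of letters and not a measured binding site.

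Of the 9 members, 1 passed the test over all genes, and it fell (limma on log2(normalised reads + 1), Benjamini-Hochberg adjusted p under 0.05). Over all 22050 genes tested, 15.5% passed in either direction and 8.6% as lower, so 1 call among 9 members is near the background. The edgeR test on recovered reads also called Noxa1 and no other member, against 23.4% of its 17337 genes in either direction, 9.88% as higher and 13.5% as lower. All 9 passed the filter on low values, a mean of at least 1 normalised read. The values of both groups did not overlap for 7 members, against 62.2% of all genes (35% higher and 27.2% lower). The 5 epithelial oxidase genes each had both Elf4fl/fl-Villin-Cre values below both wild-type values, and Cybb and Ncf1 had both above. The median log2 fold change was -0.48 over the members and 0.11 over all genes.

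**Figure D1:**
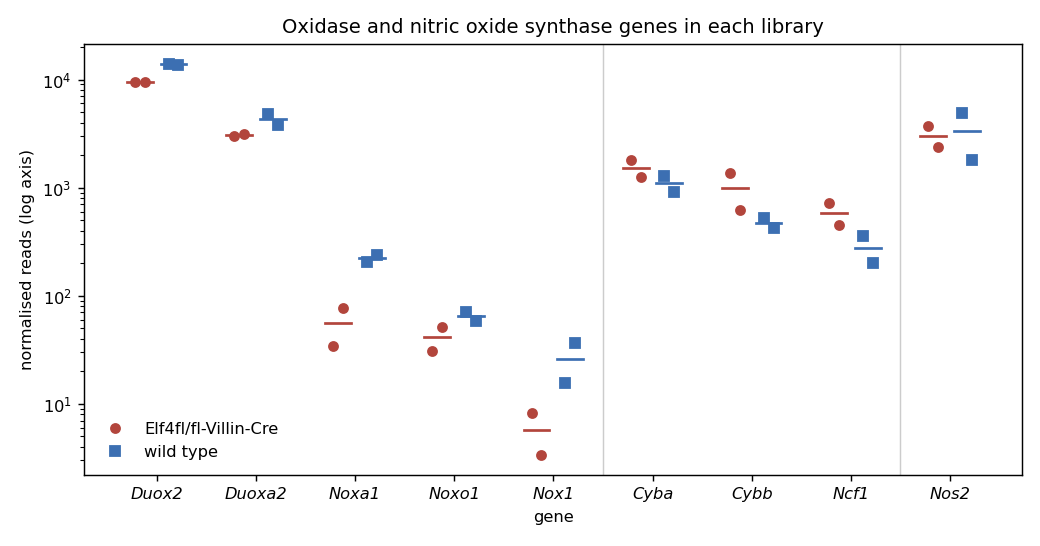
Normalised reads (log axis) of the 9 genes in each library, with Elf4fl/fl-Villin-Cre libraries as circles, wild-type libraries as squares and the group mean as a line (n = 2 each). The epithelial oxidase genes on the left have both circles below both squares, Cybb and Ncf1 have both circles above, and the Nos2 values overlap.

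Duox2 encodes the dual oxidase itself and was the member with the most reads. The gene (ENSMUSG00000068452.7) lies on chromosome 2 from 122279247 to 122298449 of mm10, on the minus strand. Duox2 stood at 9449 and 9410.45 normalised reads in Elf4fl/fl-Villin-Cre colon, against 14042 and 13557 in wild-type colon. The replicates of each genotype lay close together and the groups were apart. Duox2 averaged 9430 ± 27.6 normalised reads in Elf4fl/fl-Villin-Cre colon and 13800 ± 343 in wild-type colon (SD, n = 2 each). The difference was -0.55 ± 0.15 (SE) on the log2 scale, and it did not pass in limma (adjusted p = 0.063) or edgeR (adjusted p = 0.0539). Only 0.522% of tested genes had a higher mean, so depth does not limit this value. Scaling decides its size: the log2 fold change was -0.23 when libraries were scaled to their totals, which moved the genes by a median of 0.31, and -0.10 with quantile scaling, which does not move genes alike (median shift -0.17, while Duox2 moved the other way).

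Duoxa2, the maturation factor of Duox2, starts 450 bases from Duox2 on the opposite strand, and the printed Duoxa2 sequence is the part of that gap next to its own start. The gene (ENSMUSG00000027225.7) covers 122298900 to 122302885 on chromosome 2. It stood at 3006 and 3109.5 normalised reads in Elf4fl/fl-Villin-Cre colon, against 4795 and 3812 in wild-type colon. The groups did not overlap, and the spread came from the wild-type libraries. Its log2 fold change was -0.48 ± 0.16 (SE), with an adjusted p of 0.0937 in limma and 0.0643 in edgeR. It was -0.17 under library totals, -0.15 with quantile scaling and -0.32 with wild type replicate 1 left out. The log2 ratio of Duoxa2 to Duox2 was -1.65 and -1.60 in Elf4fl/fl-Villin-Cre colon and -1.55 and -1.83 in wild-type colon, so the proportion of the pair differed by less than the spread between wild-type libraries (difference 0.065, two-sided exact permutation p = 1). With 2 libraries a group, 0.333 is the smallest p such a test can give. The 3′ end of Duoxa2 overlaps Duoxa1 on the opposite strand by 695 bases. Whether reads were counted by strand is not given in the sources used here, so reads of overlapping genes may not be told apart.

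Noxa1 fell, and it was the member past the test. Its product is the activator of the NOX1 complex. The gene (ENSMUSG00000036805.13, chromosome 2, 25085667 to 25095149 of mm10, minus strand) stood at 34.2 and 76.9 normalised reads in Elf4fl/fl-Villin-Cre colon, against 207 and 240.2 in wild-type colon. These values come from 42 and 92 reads against 201 and 228. The groups were well apart, although the Elf4fl/fl-Villin-Cre replicates differed from each other more than the wild-type replicates did. Noxa1 averaged 55.6 ± 30.2 normalised reads in Elf4fl/fl-Villin-Cre colon and 224 ± 23.6 in wild-type colon (SD, n = 2 each). On the log2 scale it fell by 2.10 ± 0.39 (SE), which is 4.27-fold lower (limma adjusted p = 0.0218, edgeR adjusted p = 0.0153). Leaving out a library moved the limma value between -1.52 (no Elf4fl/fl-Villin-Cre replicate 1) and -2.67 (no Elf4fl/fl-Villin-Cre replicate 2). The edgeR call was lost without wild type replicate 2 (adjusted p = 0.0729), and limma called 0 genes in any fit without 1 library (1673 to 3386 genes higher, 2056 to 2803 lower where unadjusted p was under 0.05). The epithelial markers fell too (median log2 fold change -1.39), and their part in the fall of Noxa1 was not tested. Noxa1 overlaps Entpd8 on the opposite strand by 50 bases.

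Noxo1, the organizer that holds the NOX1 complex at the membrane, was a low gene. It (ENSMUSG00000019320.13, chromosome 17, 24696234 to 24700529) stood at 30.9 and 51.8 normalised reads in Elf4fl/fl-Villin-Cre colon, against 71.0 and 58.0 in wild-type colon. The groups did not overlap but came close to each other, and the limma value was -0.30 without the first Elf4fl/fl-Villin-Cre library and -1.03 without the second. A log2 fold change of -0.67 ± 0.34 (SE) did not pass in limma (adjusted p = 0.242) or edgeR (adjusted p = 0.200). Noxo1 shares 2581 bases with Tbl3 on the opposite strand.

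Nox1, the catalytic subunit, was the member with the fewest reads. The gene (ENSMUSG00000031257.14, chromosome X, 134086421 to 134221956) had 10 and 4 reads in Elf4fl/fl-Villin-Cre colon, against 15 and 35 in wild-type colon. As normalised reads these are 8.14 and 3.34 against 15.4 and 36.9. Both Elf4fl/fl-Villin-Cre values lay below both wild-type values, and the values within each genotype differed by over 2-fold. Its log2 fold change of -1.98 ± 0.63 (SE) was almost as large as that of Noxa1, but it did not pass in limma (adjusted p = 0.0877) or edgeR (adjusted p = 0.0578). It ranged in limma from -1.38 (wild type replicate 2 left out) to -2.59 (wild type replicate 1 left out). Of the tested genes, 71.9% had a higher mean than Nox1. The annotated span of Nox1 overlaps Xkrx on the same strand (13034 bases) and Arl13a and Cstf2 on the opposite strand (20528 and 399 bases), so its few reads are uncertain. The log2 ratio of Noxa1 to Nox1 was 1.94 and 4.16 in Elf4fl/fl-Villin-Cre colon and 3.66 and 2.67 in wild-type colon, and that of Noxo1 to Nox1 was 1.80 and 3.60 against 2.13 and 0.64. Neither differed by more than the spread between libraries (differences -0.11 and 1.32, two-sided exact permutation p = 1 and 0.667).

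The phagocyte subunits had values in the other direction. Cybb, the catalytic subunit of phagocytes (ENSMUSG00000015340.10, chromosome X, 9435252 to 9487771, minus strand), stood at 1367 and 622 normalised reads in Elf4fl/fl-Villin-Cre colon, against 519.6 and 423 in wild-type colon. The groups did not overlap, and Elf4fl/fl-Villin-Cre replicate 1 was far above the other 3 libraries. Cybb averaged 995 ± 527 normalised reads in Elf4fl/fl-Villin-Cre colon and 471 ± 68.6 in wild-type colon (SD, n = 2 each). Its log2 fold change of 0.98 ± 0.36 (SE) did not pass in limma (adjusted p = 0.124) or edgeR (adjusted p = 0.0829). The value was 0.41 with Elf4fl/fl-Villin-Cre replicate 1 left out and 1.54 with Elf4fl/fl-Villin-Cre replicate 2 left out, and in the second case edgeR called it (adjusted p = 0.00102).

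Ncf1, the cytosolic organizer of the phagocyte complex (ENSMUSG00000015950.13, chromosome 5, 134220053 to 134229625, minus strand), stood at 719.9 and 455 normalised reads in Elf4fl/fl-Villin-Cre colon, against 359 and 199 in wild-type colon. The groups did not overlap, and replicate 1 was the higher library in each genotype. The log2 fold change of 1.09 ± 0.34 (SE) was the highest of the members in limma and did not pass in limma (adjusted p = 0.0809) or edgeR (adjusted p = 0.0672). Under library totals it passed in limma (log2 fold change 1.41, adjusted p = 0.0362). It passed in edgeR too when Elf4fl/fl-Villin-Cre replicate 2 was left out (adjusted p = 0.00935) and without wild type replicate 1 (adjusted p = 0.0439). Its limma value was 0.67 with wild type replicate 2 left out and 1.52 with replicate 1 of that genotype left out. Ncf1 overlaps Gtf2ird2 on the opposite strand by 4303 bases.

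Cyba, the membrane partner that both CYBB and NOX1 need, differed least among the 3 phagocyte subunits. It (ENSMUSG00000006519.11, chromosome 8, 122424776 to 122432930, minus strand) stood at 1785 and 1257 normalised reads in Elf4fl/fl-Villin-Cre colon, against 1292 and 918 in wild-type colon. These ranges overlapped, with replicate 1 again the higher library of each genotype. Its log2 fold change was 0.46 ± 0.24 (SE; limma adjusted p = 0.238, edgeR adjusted p = 0.22), and between 0.21 (either Elf4fl/fl-Villin-Cre replicate 1 or wild type replicate 2 left out) and 0.71 (either of the other libraries left out). The log2 ratio of Cybb to Cyba was -0.38 and -1.01 in Elf4fl/fl-Villin-Cre colon and -1.31 and -1.12 in wild-type colon, a difference of 0.52 (two-sided exact permutation p = 0.333, the smallest possible). That of Ncf1 to Cybb was -0.92 and -0.45 against -0.53 and -1.08, which overlapped. Cyba shares all 8155 bases of its span with Gm20388 on the opposite strand.

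Nos2 varied within each genotype and its groups overlapped. The gene (ENSMUSG00000020826.8, chromosome 11, 78920787 to 78960254 of mm10, plus strand) stood at 3679 and 2349 normalised reads in Elf4fl/fl-Villin-Cre colon, against 4850.1 and 1804 in wild-type colon. The wild-type libraries held both the highest and the lowest value of the 4. Nos2 averaged 3014 ± 940 normalised reads in Elf4fl/fl-Villin-Cre colon and 3327 ± 2154 in wild-type colon (SD, n = 2 each). On the log2 scale the difference was -0.0089 ± 0.47 (SE; limma adjusted p = 0.992, edgeR adjusted p = 0.817), with a 95% interval of -1.15 to 1.13. Differences of up to about 2-fold in either direction lie within that interval. The direction turned with the library left out, from -0.72 without wild type replicate 2 to 0.70 without wild type replicate 1. The log2 ratio of Nos2 to Duox2 was -1.36 and -2.00 in Elf4fl/fl-Villin-Cre colon and -1.53 and -2.91 in wild-type colon, which also overlapped.

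**Figure D2:**
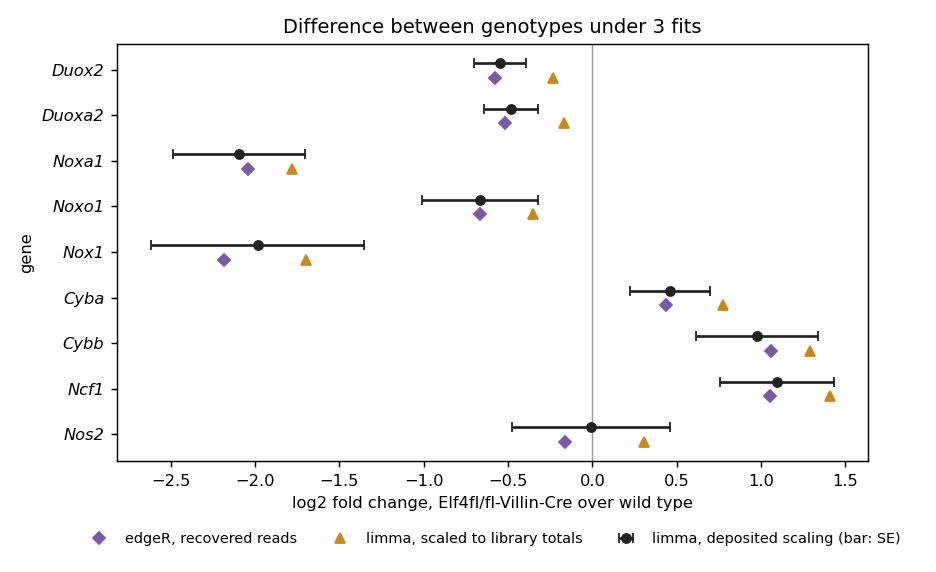
Log2 fold change of Elf4fl/fl-Villin-Cre over wild type for each gene, from limma with the deposited scaling (circle, bar = SE), edgeR on recovered reads (diamond) and limma after scaling to library totals (triangle). Noxa1 lies furthest to the left in limma at -2.10, the triangles are shifted to the right for each gene, and Nos2 spans 0.

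Divided by exon length, Duoxa2 and Duox2 led in wild-type colon. The scale is normalised reads per kilobase of merged annotated exons, which need not be the transcripts made here. In Elf4fl/fl-Villin-Cre colon the level per kilobase was 1921 ± 46.0 for Duoxa2, 1464 ± 360 for Cyba, 1393 ± 4.07 for Duox2 and 683 ± 213 for Nos2 (SD, n = 2). In wild-type colon it was 2703 ± 436 for Duoxa2, 2038 ± 50.7 for Duox2, 1064 ± 255 for Cyba and 754 ± 488 for Nos2. The place of Cyba next to Duox2 differed between the genotypes, since its 2 values fell either side of those of Duox2 in Elf4fl/fl-Villin-Cre colon and below them in wild-type colon. The other members lay far lower. In Elf4fl/fl-Villin-Cre colon Cybb stood at 171 ± 90.7, Ncf1 at 160.4 ± 51.2, Noxa1 at 34.4 ± 18.7, Noxo1 at 13.7 ± 4.90 and Nox1 at 1.74 ± 1.03 per kilobase. In wild-type colon Noxa1 stood at 138 ± 14.6, above Cybb at 81.1 ± 11.8, Ncf1 at 76.2 ± 30.9, Noxo1 at 21.4 ± 3.06 and Nox1 at 7.91 ± 4.59. Noxa1 thus ranked below Cybb and Ncf1 in Elf4fl/fl-Villin-Cre colon and above both in wild-type colon, without overlap. Neighbours whose values overlapped were Cyba and Duox2 in Elf4fl/fl-Villin-Cre colon, Cyba and Nos2 in wild-type colon, and Cybb and Ncf1 in each.

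Set against markers of the cells these genes are known from, the order of the genotypes turned for some members. This scaling was chosen after seeing the data and is a description. Per 1000 normalised reads of the 13 epithelial markers, Duox2 stood at 86.8 and 68.5 in Elf4fl/fl-Villin-Cre colon, against 43.2 and 34.6 in wild-type colon. Duoxa2 stood at 27.6 and 22.6 against 14.7 and 9.73. On this scale both lay above wild type in each Elf4fl/fl-Villin-Cre library, the reverse of their order per library. Noxo1 had 0.284 and 0.377 against 0.218 and 0.148 and moved to the same side. Noxa1 stayed below, at 0.314 and 0.56 against 0.636 and 0.613. Its log2 fold change of -2.10 lay within the range of the 13 markers, from -0.93 (Tspan8) to -2.15 (Krt19). The sum weights the abundant markers most. Nox1 overlapped, at 0.0748 and 0.0243 against 0.0475 and 0.0941.

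Per 1000 normalised reads of the 14 macrophage and monocyte markers, Cybb stood at 67.5 and 37.8 in Elf4fl/fl-Villin-Cre colon, against 48.0 and 44.6 in wild-type colon. Ncf1 stood at 35.5 and 27.7 against 33.1 and 21.02. On this scale the groups of both genes overlapped. Cyba lay below wild type, at 88.1 and 76.4 against 119 and 96.9, and Nos2 did too, at 182 and 143 against 448 and 190.4. Per 1000 epithelial marker reads the order of both turned, with Cyba at 16.4 and 9.15 in Elf4fl/fl-Villin-Cre colon against 3.97 and 2.34 in wild-type colon, and Nos2 at 33.8 and 17.1 against 14.9 and 4.60. Per 1000 reads of all 14 neutrophil markers, a sum that includes Ly6g, the groups of Cyba and of Nos2 overlapped. That overlap depends on Ly6g, which made 9105 and 10787 of the 17495 and 19154.5 normalised reads in Elf4fl/fl-Villin-Cre colon. In wild-type colon it made 12663 and 13520.2 of 14819 and 14479. Without Ly6g the sum was 8390 and 8368 in Elf4fl/fl-Villin-Cre colon, against 2155 and 959 in wild-type colon. The members were not scaled to that smaller sum. It rose by more than Cyba did, so per read of it Cyba and Nos2 would lie below wild type without overlap. Per 1000 reads of the B cell markers the groups of Cybb also overlapped, at 505 and 449.8 against 362 and 639.6. Which cells made these RNAs was not measured.

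**Figure D3:**
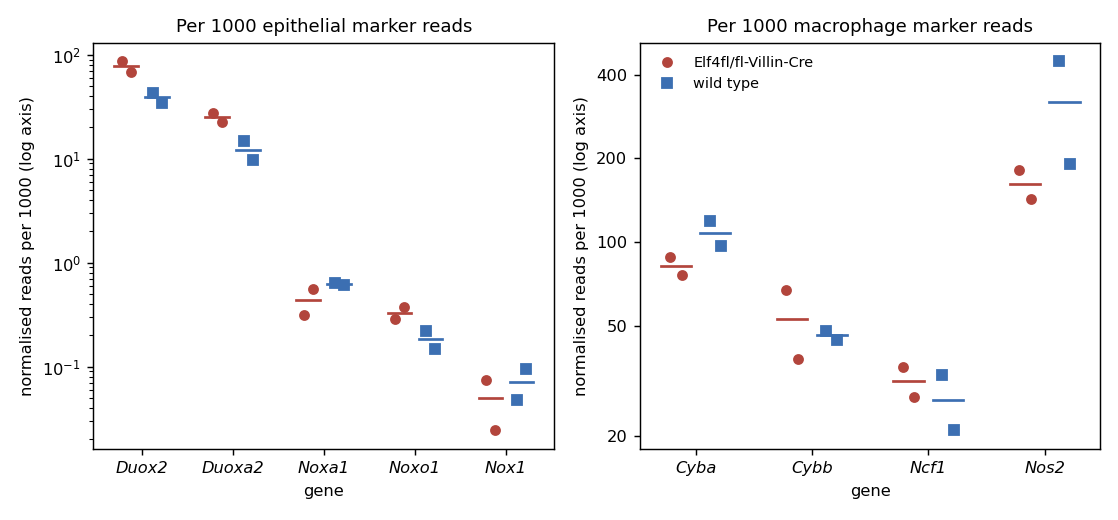
Normalised reads of each gene per 1000 normalised reads of summed markers in the same library (log axes), epithelial markers on the left and macrophage and monocyte markers on the right, with circles for Elf4fl/fl-Villin-Cre, squares for wild type and lines for group means (n = 2 each). Duox2 and Duoxa2 lie higher in Elf4fl/fl-Villin-Cre colon per epithelial marker, Noxa1 lies lower, and Cybb and Ncf1 overlap per macrophage marker.

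Other genes of the NADPH oxidases passed in 1 of 12 cases. Prkcd, a protein kinase C isoform that phosphorylates NCF1, fell by 0.72 ± 0.16 (limma adjusted p = 0.0354), against 8.6% of all genes called lower. Its call was lost under library totals (adjusted p = 0.127) and quantile scaling (adjusted p = 0.2), and in edgeR when replicate 2 of Elf4fl/fl-Villin-Cre or of wild type was left out (adjusted p = 0.0947 and 0.118). Under library totals 1 gene of the list passed as higher and 0 as lower. The list had a median log2 fold change of 0.37 with the deposited scaling. The partners named next were chosen for their role after the values were seen. Ncf4, a cytosolic subunit of the phagocyte oxidase, stood at 512 and 282 normalised reads in Elf4fl/fl-Villin-Cre colon and 263 and 183 in wild-type colon. Rac2, the GTPase of the phagocyte complex, stood at 1301 and 1010.02 in Elf4fl/fl-Villin-Cre colon and 1008 and 539.5 in wild-type colon. Rac1, its widely expressed relative, had the opposite order, at 3935 and 4755 against 5215 and 6345. None of these 3 passed in limma or edgeR (smallest limma adjusted p = 0.156). Duox1 and Duoxa1, the neighbouring pair on chromosome 2, lay far below Duox2, at 1.63 and 9.20 against 10.3 and 15.8 for Duox1 and at 82.3 and 109.5 against 91.6 and 72.7 for Duoxa1.

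Genes around nitric oxide and its substrate arginine changed although Nos2 did not pass. Of 18, 5 rose and 2 fell in limma, against 6.86% and 8.6% of all genes. Arg2 and Arg1, the arginases that use the same substrate as NOS2, rose, with log2 fold changes of 3.49 ± 0.24 and 1.92 ± 0.37 (SE; limma adjusted p = 0.00636 and 0.0243). Arg2 stood at 244 and 320.2 normalised reads in Elf4fl/fl-Villin-Cre colon, against 23.7 and 24.2 in wild-type colon, while Arg1 stood at 223 and 219 against 39.1 and 85.4. Gucy1b1, a subunit of the nitric oxide receptor guanylate cyclase, rose by 1.06, and Slc7a2, a carrier of arginine named after its value was seen, by 0.99 (limma adjusted p = 0.0135 and 0.0436). The Slc7a2 call was lost in edgeR with Elf4fl/fl-Villin-Cre replicate 1, wild type replicate 1 or wild type replicate 2 left out (adjusted p = 0.18, 0.142 and 0.0961). Nos3, the endothelial synthase, rose by 0.83 (limma adjusted p = 0.0393), and edgeR lost it in each of the 4 fits without 1 library (adjusted p = 0.0721 to 0.148). Ddah1, which breaks down an inhibitor of nitric oxide synthases, fell by 1.17, and Gchfr, a regulator of the enzyme that starts synthesis of the NOS2 cofactor, by 1.51 (limma adjusted p = 0.0133 and 0.0209). edgeR lost Gchfr without wild type replicate 2 (adjusted p = 0.0704). Quantile scaling ended the limma calls of Arg1, Nos3 and Slc7a2 (adjusted p = 0.07, 0.0712 and 0.111).

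Genes that remove peroxide and superoxide went both ways. Of 25 antioxidant genes, 7 rose and 6 fell, against 6.86% and 8.6% of all genes. Their median log2 fold change was 0.029, against 0.11 over all genes. Under library totals 9 rose and 2 fell, and with quantile scaling 7 rose and 0 fell. Slc7a11, the cystine carrier for glutathione synthesis, stood at 706 and 570.2 normalised reads in Elf4fl/fl-Villin-Cre colon, against 123 and 112 in wild-type colon, and Hmox1, heme oxygenase 1, at 1823 and 1039 against 287 and 302 (limma adjusted p = 0.00636 and 0.00973). Gpx3, a secreted glutathione peroxidase, and Sod2, the mitochondrial superoxide dismutase, rose by 1.58 and 1.24 (limma adjusted p = 0.0089 and 0.0148). Gpx2, the glutathione peroxidase of gut epithelium, fell to 851 and 1840.3 normalised reads in Elf4fl/fl-Villin-Cre colon, against 6414 and 5018 in wild-type colon (limma adjusted p = 0.0167). Txn1, thioredoxin, fell by 1.10, Gpx1 by 0.71 and Srxn1, sulfiredoxin, by 0.76 (limma adjusted p = 0.0159, 0.0214 and 0.0392). edgeR lost Sod2, Txn1, Gpx1 and Srxn1 without wild type replicate 2 (adjusted p = 0.0634, 0.0599, 0.0633 and 0.0994) and Gpx1 and Srxn1 also when Elf4fl/fl-Villin-Cre replicate 1 was left out (adjusted p = 0.0741 and 0.09998). Library totals ended the limma calls of Gpx1 and Srxn1 (adjusted p = 0.0694 and 0.101), and quantile scaling those of Gpx2, Txn1, Gpx1 and Srxn1 (adjusted p = 0.0578, 0.0937, 0.105 and 0.132). Of the peroxidases, 3 were measured and 1 passed: Pxdn, a peroxidase of the extracellular matrix, rose by 0.81 (limma adjusted p = 0.015), and edgeR lost it without wild type replicate 2 (adjusted p = 0.0556). Lpo, lactoperoxidase, stood at 88.0 and 171 normalised reads against 339.5 and 258, which limma did not call (adjusted p = 0.0565) and edgeR did (adjusted p = 0.0411).

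Cytokines and transcription factors known to act on Nos2 or Duox2 expression gave 7 calls. Of 15, 6 rose and 1 fell, against 6.86% and 8.6% of all genes. Their median log2 fold change was 0.54, against 0.11 over all genes. Il17a had 72 reads over the Elf4fl/fl-Villin-Cre libraries and 0 over the wild-type libraries, at least 19.0-fold higher against a floor of 3 reads over the group, which covers counting error only. Il1b, Cebpb and Il6 also rose, with log2 fold changes of 3.04, 1.85 and 4.58 (limma adjusted p = 0.00745, 0.0108 and 0.0177), and Il6 ranged from 3.30 without wild type replicate 2 to 5.86 without wild type replicate 1. Hnf4a, a factor of epithelial identity, fell to 2559 and 3444 normalised reads in Elf4fl/fl-Villin-Cre colon, against 8902 and 11763 in wild-type colon (limma adjusted p = 0.00986). The values of 3 others, chosen after they were seen, did not pass in limma. Ifng, the classic inducer of Nos2, stood at 24.4 and 0.836 against 4.12 and 2.11 normalised reads. Tnf stood at 336 and 298 against 225 and 573, and the values of both cytokines overlapped between the genotypes. Il22, which acts on epithelium, stood at 39.9 and 61.9 against 19.5 and 4.21 (limma adjusted p = 0.0769).

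**Figure D4:**
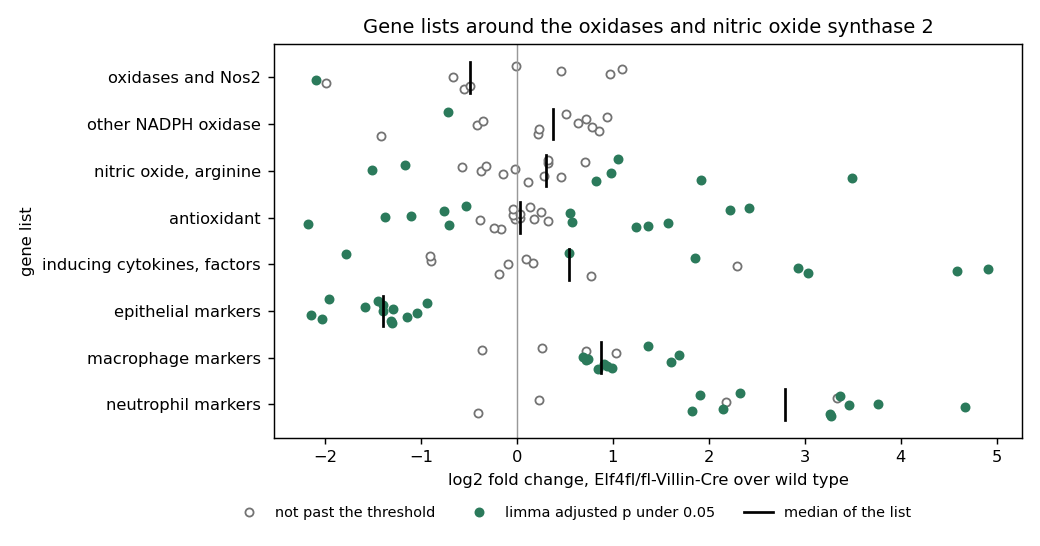
Log2 fold change of Elf4fl/fl-Villin-Cre over wild type for each tested gene of the 9 members, 4 pathway lists and 3 marker lists, filled where the limma adjusted p was under 0.05, with a line at each list's median. The Il17a point at the far right is a fitted value against 0 wild-type reads. Epithelial markers lie at the left (median -1.39), macrophage markers at the right (median 0.88), and the members on either side of 0 (median -0.48).

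Genes with the pattern nearest to a member were sought over the 4 libraries, by the Euclidean distance of log2 values centred on each gene's mean, among 10486 well-measured protein-coding genes. With 4 libraries many genes have like patterns, so the distances are descriptions. Nearest to Nos2 were Cd3g, a T cell receptor complex chain, and Gzmb, granzyme B of cytotoxic lymphocytes (distances 0.20 and 0.26), followed by Phf11b (0.43). Cd3g stood at 195 and 125 normalised reads in Elf4fl/fl-Villin-Cre colon, against 218 and 91.7 in wild-type colon, so like Nos2 it was higher in replicate 1 of each genotype. Nearest to Cybb were Ly9, Ccl8 and Ms4a6b (0.16, 0.16 and 0.18), of which Ly9 is a lymphocyte surface receptor and Ccl8 a chemokine. Nearest to Duox2 were Cog2, Triap1 and Ppp1ca (0.011, 0.026 and 0.028), whose log2 fold changes were -0.55, -0.57 and -0.54.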

How the data were processed

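RNA of whole distal colon was measured by sequencing in 2 Elf4fl/fl-Villin-Cre and 2 wild-type libraries, grouped by the genotype label. The deposited table holds a normalised signal made by the authors, not raw counts. Each value was a whole multiple of the smallest value above 0 in its library (100% of values, tolerance 0.01), so reads were recovered by division. Reads had been mapped to mm10, which the submitters' processing notes name. The sources used here do not give the aligner, counter, strandedness or scaling tool. Symbols, positions and exon lengths came from GENCODE mouse release 21, and upstream sequences from RefSeq.

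The main test was limma 3.58.1 (R 4.3.3) applied to log2(value + 1), with genotype alone in the model and a mean-variance trend, over the 22050 genes with a mean of at least 1, with Benjamini-Hochberg adjustment at 0.05. The fit was tested on simulated data. edgeR 4.0.16 and DESeq2 1.42.0 on recovered reads, other scalings, pseudocounts and filters, and fits without 1 library were alternatives. A fold change on this scale understates the change of low genes. Intervals cover the spread between libraries, and the read floor covers counting error only.

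The members and gene lists were chosen with earlier results of these data known. The naming rule took all members, up to 4 genes in each direction per pathway list by smallest p, and 3 nearest patterns each for Duox2, Nos2 and Cybb. Mpo, Epx, Nox3, Il36g and Elane were on the lists and are not analysed here. A gene of the NADPH oxidase list is not reported here.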

Additional observations from a re-analysis of the deposited data

How the results depend on the processing

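Noxa1 kept its direction in all settings run and lost its limma call without the variance trend (log2 fold change -2.10, adjusted p = 0.117) and in each fit without 1 library (-1.52 to -2.67 in limma; in edgeR lost in 1 of 4, -1.92 without wild type replicate 2). With 1 library left out, limma keeps 1 residual degree of freedom and the lone sample is assumed to vary like the others, and it called 0 genes. Without the trend it also called 0 genes (3326 genes higher, 2762 lower where unadjusted p was under 0.05; edgeR with all libraries called 1713 and 2341).

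Over all genes limma called 1512 higher and 1897 lower with the deposited scaling, 4069 and 1178 under library totals and 962 and 974 with quantile scaling. edgeR without 1 library called 476 to 1563 higher (844 with Elf4fl/fl-Villin-Cre replicate 1 left out) and 809 to 2191 lower, the lowest of each without wild type replicate 2. DESeq2 called 1590 genes higher and 2565 lower of 22394, of which 5210 had no adjusted p. Of the 9 members DESeq2 called 5, adding Duox2 (-0.61), Duoxa2 (-0.55), Cybb (1.02) and Ncf1 (1.02), and library totals added Ncf1 (1.41). edgeR added Cybb (1.501) and Ncf1 (1.33) without Elf4fl/fl-Villin-Cre replicate 2 and Ncf1 (1.52) without wild type replicate 1. With 1 library left out Cybb ranged from 0.36 to 1.54 and Ncf1 from 0.66 to 1.52. Nos2 ranged from -0.72 to 0.70 with 1 library left out. It turned to 0.31 under library totals, 0.30 with quantile scaling, and 0.31 and 0.70 in limma (edgeR gave 0.11 and 0.70) without Elf4fl/fl-Villin-Cre replicate 2 and wild type replicate 1. The log2 ratio of Noxa1 to Nox1 turned to 0.052 at a pseudocount of 0.1. Of the named genes, Duoxa1 turned to -0.00208 with quantile scaling and to -0.035 when edgeR left out Elf4fl/fl-Villin-Cre replicate 2. Ifng turned without Elf4fl/fl-Villin-Cre replicate 1 (-1.12, up to 2.67), and Tnf under library totals (0.13) and without wild type replicate 2 (0.49 in limma, 0.47 in edgeR, down to -0.86). The cause of these turns was not tested.

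Same-numbered libraries share only a number, and their deviations correlated at 0.20 over 16881 genes. With a replicate block limma called 2066 higher and 2445 lower of 22050 genes. Among them were 5 members, namely Duox2 (-0.55), Noxa1, Cybb (0.98), Cyba (0.46) and Ncf1 (1.09). With the block edgeR called 2456 higher and 2977 lower of 17337 genes. It called 7 members, with Duox2 at -0.58, Duoxa2 at -0.51, Nox1 at -2.11, Cybb at 0.96, Cyba at 0.43 and Ncf1 at 1.07.

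The other NADPH oxidase genes had 1 call, and 0 with quantile scaling, without the trend and in limma without 1 library, 2 in DESeq2, 5 and 7 with the block (limma and edgeR) and 0 to 3 in edgeR without 1 library. The nitric oxide list had 7 calls, and 11 under library totals, 4 with quantile scaling, 0 without the trend and in limma without 1 library, and 4 to 7 in edgeR without 1 library. The peroxidases had 1 call, and 2 with a stricter filter (mean of at least 10), in edgeR, DESeq2 and with the block, 0 without the trend and in limma without 1 library, and 0 to 2 in edgeR without 1 library. The antioxidant list had 13 calls, and 7 with quantile scaling, 0 without the trend and in limma without 1 library, and 5 to 10 in edgeR without 1 library. The inducing list had 7 calls, and 0 without the trend and in limma without 1 library. Nox1, at 4 to 35 reads, is the member whose depth limits its value.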
